A study of Mus musculus with 703 samples.

Results

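Fatty acids reach the mitochondria of a muscle fiber through a chain of proteins, and 8 genes of that chain were examined here in mouse gastrocnemius, the large calf muscle: Lpl, Cd36, Slc27a1, Fabp3, Acsl1, Cpt1b, Slc25a20 and Cpt2. They were taken by symbol from a table of 19088 genes measured by RNA-seq, with 1 library per animal. All 8 were found, 1 row each, and all 8 passed the filter on low counts in every comparison. The animals were F1 offspring of 20 crosses between Collaborative Cross lines, inbred mouse lines that each carry a mosaic of the same founder genomes, and the labels give all of them the genotype "Outbred". From 6 weeks of age they ate a diet labeled 10% fat or a diet labeled 44% fat, both with fiber, and the second is the high-fat, high-sugar diet of the study. No transgene or deletion is named in the labels.

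The animals given no drug were 236 females and 233 males, of which 235 ate the 44% fat diet and the rest, 1 animal fewer, the 10% fat diet, with the sexes balanced within each diet. Metformin, a widely used antidiabetic drug, was given in the drinking water at 5 mg/mL from 7 months of age to 57 females and 59 males on the 10% fat diet and 59 females and 59 males on the 44% fat diet. Untreated animals were collected at 6 or 12 months and metformin-treated animals at 12 months. The labels do not give the age of each animal, so drug and age cannot be told apart. Untreated animals filled 80 combinations of strain, sex and diet with 2 to 8 animals each, and metformin-treated animals filled 79 combinations with 1 to 4 animals each.

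Lipoprotein lipase, encoded by Lpl, frees fatty acids from circulating triglyceride at the capillary wall, and the membrane proteins encoded by Cd36 and Slc27a1 (FATP1) promote their entry into the fiber. The heart-type binding protein encoded by Fabp3 carries them through the cytosol, and the synthetase encoded by Acsl1 couples them to coenzyme A. Cpt1b, the muscle carnitine palmitoyltransferase of the outer mitochondrial membrane, then moves the acyl chain onto carnitine, the carrier encoded by Slc25a20 exchanges acylcarnitine across the inner membrane, and Cpt2 restores the acyl-CoA inside for oxidation. The Cpt1b step is inhibited by malonyl-CoA and is a classical control point of the pathway. Several of these genes are known targets of the lipid-sensing nuclear receptors of the PPAR family, which bind direct repeats of a short hexamer.

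Library totals ran from 27.4M to 96.1M counts with a median of 47.9M, and the lowest count of any member in any library was 844, for Cpt2. The 8 markers of fast skeletal muscle were abundant, as the tissue label implies, with medians of their summed level at 145000 to 158000 CPM (counts scaled to the library total) in the 8 groups. Slow fiber markers (7 genes) had group medians of 2090 to 2200 CPM in females and 1260 to 1390 CPM in males, and adipocyte markers (6 genes) of at least 89.4 CPM in females and 51.4 to 64.1 CPM in males. By the X-inactivation transcript 15 libraries fell with the sex opposite to their label, 4 libraries were closest in expression to another strain, and 19 libraries were in either class. Liver transcripts were at most 10 times their median in 404 untreated and 198 metformin-treated libraries and higher in the rest. The sequencing identifiers fell into a lower range (544 libraries) and an upper range (159 libraries), and (CC009/UncJ x CC013/GeniUncJ)F1 was present in the upper range alone.

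The members lie on 5 chromosomes of GRCm38: Lpl (ENSMUSG00000015568) at chr8:68880491-68907448 on the plus strand, Slc27a1 (ENSMUSG00000031808) at chr8:71568927-71586708 on the plus strand, Acsl1 (ENSMUSG00000018796) at chr8:46471041-46536051 on the plus strand, Fabp3 (ENSMUSG00000028773) at chr4:130308595-130315463 on the plus strand, Cpt2 (ENSMUSG00000028607) at chr4:107903981-107923610 on the minus strand, Cd36 (ENSMUSG00000002944) at chr5:17781690-17888801 on the minus strand, Slc25a20 (ENSMUSG00000032602) at chr9:108662088-108684641 on the plus strand and Cpt1b (ENSMUSG00000078937) at chr15:89416405-89425863 on the minus strand. Cpt1b lies wholly within the gene Gm44502 on the same strand, Acsl1 overlaps the antisense gene Gm45244 over 2200 bases, and neither of these is in the table analyzed. Fabp3 overlaps Gm10570 by 80 bases and Zcchc17 by 81 bases, both on the opposite strand, and has a pseudogene, Fabp3-ps1. No source used here states whether the counting used strand, so the split of reads between these genes and the members is uncertain.

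The 250 bases before the start site are shown for the 3 members with the largest diet difference in untreated animals, to set the promoters of genes that rose together side by side. They come from RefSeq on GRCm38.p6 and are written in the direction of transcription. The windows are Fabp3 at chr4:130308488-130308737 on the plus strand, Cd36 at chr5:17835897-17836146 on the minus strand and Slc25a20 at chr9:108661886-108662135 on the plus strand, and all 3 RefSeq starts lie inside the span that the deposited annotation gives the gene. The Fabp3 and Slc25a20 windows include the annotated start of the gene. The Cd36 window lies far inside its gene, which begins at 17888801 on the minus strand and has 6 annotated transcripts. Which Cd36 start the muscle uses was not tested. Capitals mark a match, on either strand, to the nuclear receptor hexamer AGGTCA, the GC box GGGCGG, the CCAAT box or the TATA box TATAAA.
Fabp3: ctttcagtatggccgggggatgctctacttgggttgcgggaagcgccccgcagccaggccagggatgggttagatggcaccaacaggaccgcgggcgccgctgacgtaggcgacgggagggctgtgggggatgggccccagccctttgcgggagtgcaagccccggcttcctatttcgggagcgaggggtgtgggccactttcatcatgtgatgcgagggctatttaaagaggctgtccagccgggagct
Cd36: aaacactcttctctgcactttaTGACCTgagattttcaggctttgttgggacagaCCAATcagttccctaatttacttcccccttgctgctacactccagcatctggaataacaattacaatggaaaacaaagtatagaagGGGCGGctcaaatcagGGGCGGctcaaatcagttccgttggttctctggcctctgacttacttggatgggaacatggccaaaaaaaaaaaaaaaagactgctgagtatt
Slc25a20: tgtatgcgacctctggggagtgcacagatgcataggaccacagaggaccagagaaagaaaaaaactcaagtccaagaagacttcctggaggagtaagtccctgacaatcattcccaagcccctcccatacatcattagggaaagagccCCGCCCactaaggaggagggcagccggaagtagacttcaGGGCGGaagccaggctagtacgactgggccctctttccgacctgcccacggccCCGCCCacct

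No motif was common to these 3 windows. The Fabp3 window held none of the motifs searched, the Slc25a20 window held 3 GC boxes, and the Cd36 window held 2 GC boxes, 1 CCAAT box and 1 AGGTCA hexamer that begins 228 bases before the start. Over all 9 windows that the RefSeq table gives for 6 members, AGGTCA was present in 1 of 9, beside 14.024% of 32851 promoter windows of the same length. The direct repeat AGGNCANAGGNCA was in 0 of 9 windows, beside 0.338% of all. The GC box was in 6 of 9 windows (32.742% of all), the CCAAT box in 4 of 9 (33.85%) and TATAAA in 0 of 9 (12.368%). These are letter matches in a short window, and elements farther from the start or in introns were not searched.

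Per kilobase of annotated exon, Fabp3 was the most abundant member in untreated animals, with 271.7 ± 109.6 CPM per kb (SD over 236 females and 233 males). Cd36 with 63.36 ± 15.1, Cpt1b with 60.12 ± 8.214, Lpl with 44.05 ± 7.481 and Acsl1 with 26.51 ± 4.788 CPM per kb followed. Cpt2 with 17.01 ± 2.677, Slc25a20 with 9.365 ± 1.822 and Slc27a1 with 8.181 ± 1.941 CPM per kb were lowest. The neighbors Cd36 and Cpt1b, and likewise Slc25a20 and Slc27a1, lay within each other's spread. The length used joins the exons of all annotated transcripts of a gene, 0.823 kb for Fabp3 (1 transcript) and 10.478 kb for Lpl (5 transcripts). Which transcripts the muscle makes was not measured, so the order by length is uncertain. Without length correction Lpl had the highest mean, 461.5 CPM. All levels below are CPM without length correction, and differences are log2 fold changes with their standard errors.

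All 8 members were higher on the 44% fat diet in untreated animals, and Fabp3 stood at the head of them with a 1.823-fold difference. The other 7 differed by between 1.076-fold (Lpl) and 1.287-fold (Cd36). Of all 16384 genes tested, 20.3% were called at an adjusted p under 0.05 (edgeR's quasi-likelihood test with Benjamini-Hochberg adjustment) and 10.1% were called higher on the 44% fat diet. The median log2 difference over the 8 members was 0.247, beside -0.003 over all genes. In bulk tissue, fewer cells of a type and less RNA per cell cannot be told apart.

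Lipoprotein lipase changed least with diet. The lowest, median and highest Lpl levels were 241.7, 441.1 and 680.3 CPM on the 10% fat diet and 310.8, 473.3 and 795.9 CPM on the 44% fat diet (n = 235). The diets overlapped over nearly the whole range, and the log2 difference was 0.11 ± 0.02 (adjusted p = 1.2e-06). Within the 400 untreated libraries of the lower identifier range all 8 members were called, whereas within the 69 of the upper range Lpl was not, at 0.119 (adjusted p = 0.16), and the other 7 were. Of all genes, 2806 of 16348 were called in the lower range and 365 of 16600 in the upper.

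The transcripts of the uptake proteins rose by more. Cd36 reached 377.2 CPM with a median of 191 CPM on the 10% fat diet, and ran from 72.71 to 403.9 CPM with a median of 247.5 CPM on the 44% fat diet. Its log2 difference was 0.36 ± 0.02 (adjusted p = 8.6e-47). The lowest value on the 44% fat diet came from a library that was closer in expression to another strain than to the one on its label. Slc27a1 ran from 21.1 to 98.03 CPM (median 42.34) on the 10% fat diet and from 29.83 to 91.71 CPM (median 50.36) on the 44% fat diet. For both genes the interquartile ranges of the diets overlapped, and Slc27a1 differed by 0.23 ± 0.02 on the log2 scale (adjusted p = 2.9e-20).

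The cytosolic carrier showed the widest separation. Fabp3 ran from 76.1 to 370.4 CPM with a median of 153.9 CPM on the 10% fat diet, and from 98.05 to 577 CPM with a median of 283.9 CPM on the 44% fat diet. The upper quartile on the 10% fat diet, 183.8 CPM, lay below the lower quartile on the 44% fat diet, 233.9 CPM, although the extremes overlapped. The log2 difference was 0.87 ± 0.03 (adjusted p = 6.5e-92), and only 1 of the 16384 genes had a smaller p. Acsl1, the synthetase, rose from 254.3 ± 44.86 CPM to 301.3 ± 43.92 CPM (SD), a log2 difference of 0.25 ± 0.02 (adjusted p = 1.7e-28), with quartiles that met at 270 and 271 CPM.

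The 3 genes of the carnitine shuttle rose together. Slc25a20 ran from 25.99 to 63.32 CPM with a median of 40.36 CPM on the 10% fat diet, and from 30.64 to 84.15 CPM with a median of 50.14 CPM on the 44% fat diet, a log2 difference of 0.31 ± 0.02 (adjusted p = 1.6e-58, the 10th smallest p of all genes). Cpt2 rose from 37.25 ± 4.687 to 44.09 ± 6.058 CPM (0.25 ± 0.01, adjusted p = 7.3e-47) and Cpt1b from 189 ± 22.76 to 216.4 ± 25.37 CPM (0.20 ± 0.01, adjusted p = 3.8e-43). For Slc25a20 and Cpt2 the quartiles of the diets did not overlap (44.11 against 44.99 CPM and 40 against 40.13 CPM), whereas for Cpt1b they did. Of the 6 adipocyte markers 3 were higher and 2 lower on the 44% fat diet with a median log2 difference of -0.004, 3 of 6 endothelial markers were higher and 3 of 7 slow fiber markers were higher. With the summed level of any of these marker lists as a covariate, all 8 members were still called. Of 16384 genes, 3456 were called with the adipocyte sum, 4164 with the endothelial sum and 3320 with the slow fiber sum.

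**Figure D1:**
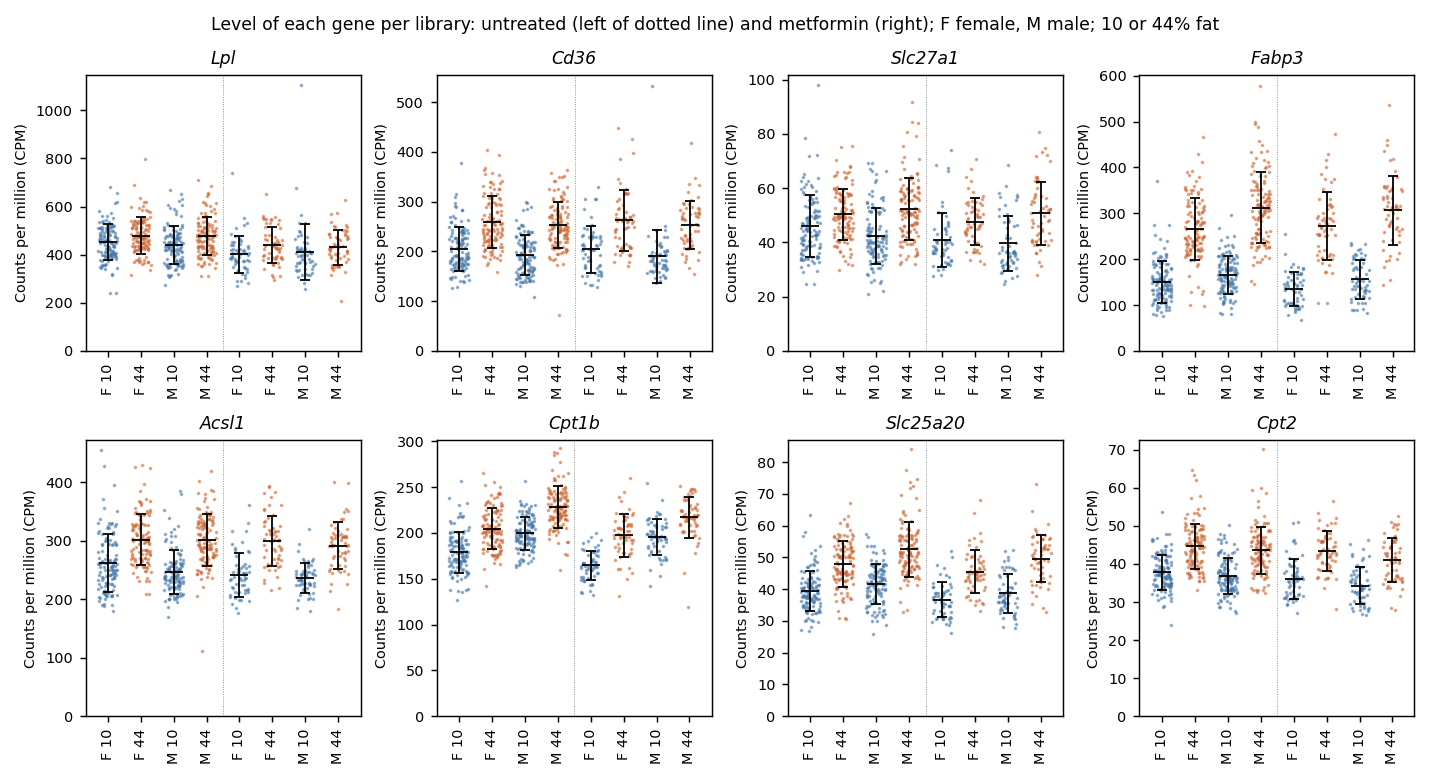
Level of each of the 8 genes (CPM, vertical axis from 0) in every library, by sex and diet, with untreated animals left of the dotted line and metformin-treated animals right of it. Each point is 1 animal and black marks are the mean and SD of a group. The diets are farthest apart for Fabp3, with untreated medians of 153.9 and 283.9 CPM, and closest for Lpl, with 441.1 and 473.3 CPM.

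In the metformin-treated animals, which the first comparison does not use, all 8 members were again higher on the 44% fat diet. Of 16418 genes tested there, 12.1% were called and 5.27% were called higher, and the median log2 difference was 0.295 over the members and -0.0079 over all genes. Fabp3 rose from 145.5 ± 40.71 CPM (SD, 57 females and 59 males) to 289.4 ± 76.57 CPM (59 females and 59 males), a 1.984-fold difference (log2 0.99 ± 0.05, adjusted p = 1.6e-52) with the smallest p of all genes. Cd36 rose from 197.1 ± 50.39 to 257.6 ± 54.97 CPM (0.38 ± 0.03, adjusted p = 2.3e-22) and Slc27a1 from 40.29 ± 9.983 to 49.14 ± 10.32 CPM (0.29 ± 0.03, adjusted p = 9.8e-18).

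The activation and shuttle genes rose in these animals as well. Slc25a20 rose from 37.7 ± 5.903 to 47.55 ± 7.398 CPM (0.33 ± 0.02, adjusted p = 1.8e-35), Acsl1 from 239 ± 31.63 to 295.4 ± 41.76 CPM (0.30 ± 0.02, adjusted p = 7.4e-25) and Cpt2 from 35.15 ± 5.102 to 42.15 ± 5.639 CPM (0.26 ± 0.02, adjusted p = 1.6e-26). Cpt1b differed by 0.20 ± 0.02 (adjusted p = 3.1e-19). Lpl was again the smallest, from 407.5 ± 98.79 to 435.4 ± 73.97 CPM (0.09 ± 0.03, adjusted p = 0.03), and its call did not hold in the lower identifier range alone (0.033, adjusted p = 0.79), with the endothelial marker sum as a covariate (0.054, adjusted p = 0.27) or with the slow fiber sum (0.06, adjusted p = 0.18). In these animals 3 of 6 adipocyte markers were lower on the 44% fat diet (median -0.32) and 3 of 6 endothelial markers higher. Apart from Lpl, all members were called within each identifier range. Of all genes, 615 of 16253 were called in the lower range and 836 of 16527 in the upper.

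**Figure D2:**
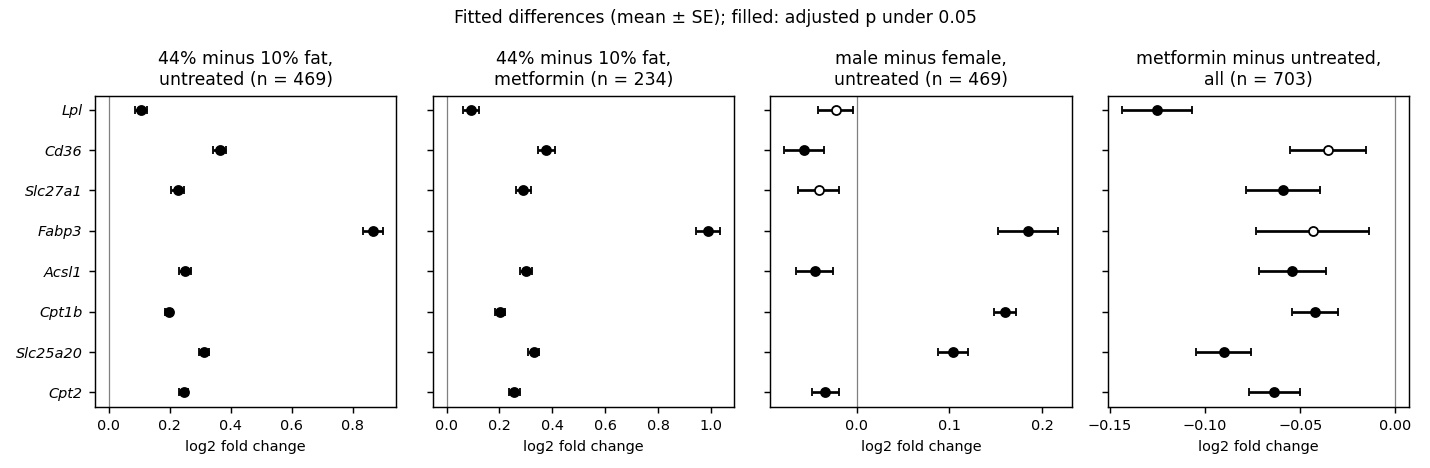
Fitted log2 fold changes of the 8 genes for diet (44% minus 10% fat, in untreated and in metformin-treated animals), sex (male minus female) and metformin (treated minus untreated), with standard errors as bars and filled points where the adjusted p was under 0.05. Both diet panels lie above 0 for all 8 genes, with Fabp3 at 0.87 and 0.99, while the metformin values lie between -0.13 and -0.04.

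Diet took a different share of the variance in each gene. In untreated animals diet accounted for 54.412% of the variance of log2 Fabp3 (omega squared), strain for 7.103% and sex for 2.597%, and 0 of 10714 genes had a higher diet share. For Slc25a20 diet and strain stood side by side at 31.107% and 25.962%, as they did for Cd36 at 27.335% and 23.755%. Slc27a1 and Lpl were the reverse, with 32.296% and 26.03% for strain against 10.994% and 4.571% for diet. Cpt1b was the member with the largest share for sex, 16.252%, next to 24.085% for diet. Cpt2 had 30.168% for diet and 18.038% for strain, and Acsl1 had 22.631% and 7.709%. The median over the 10714 genes was 0.14% for diet, 17.97% for strain and 2.189% for sex, so Fabp3, Acsl1 and Cpt1b had strain shares below that median.

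**Figure D3:**
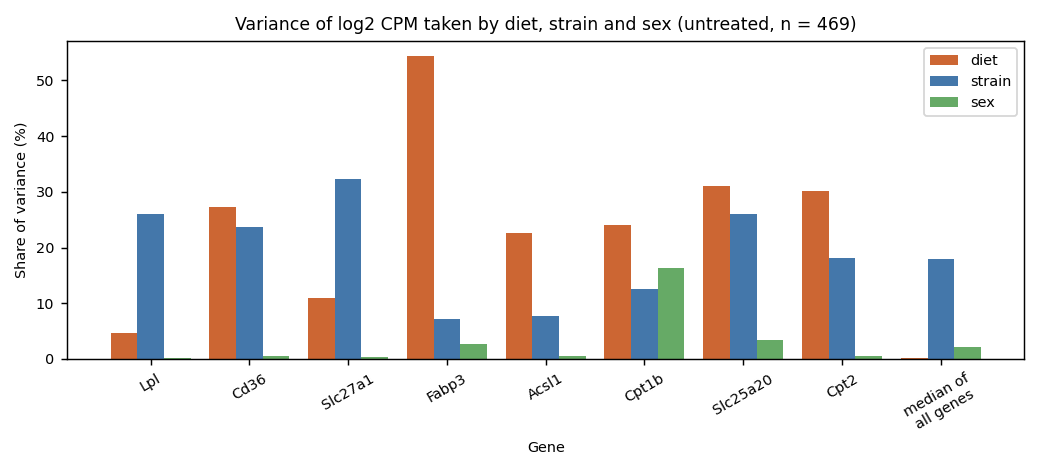
Share of the variance of log2 CPM (percent, omega squared) that strain, diet and sex accounted for in the untreated animals, for each of the 8 genes and for the median of 10714 genes. Diet has the largest share for Fabp3 (54.412%), whereas strain has the largest share for Slc27a1 (32.296%) and Lpl (26.03%).

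All 8 members differed between the 20 strains in untreated animals, as did 95.4% of all genes tested, so a count of 8 of 8 is near the background. The span from the highest to the lowest strain, adjusted for sex, diet and identifier range, was widest for Slc27a1 at 0.843 ± 0.07 on the log2 scale (adjusted p = 1.2e-42 for strain), from 63.65 CPM in (CC024/GeniUncJ x CC002/UncJ)F1 to 34.01 CPM in (CC019/TauUncJ x CC075/UncJ)F1. Fabp3 spanned 0.828 ± 0.102, from (CC043/GeniUncJ x CC011/UncJ)F1 at 284.8 CPM down to 161.1 CPM in (CC012/GeniUncJ x CC002/UncJ)F1. Lpl spanned 0.601 ± 0.059, from (CC043/GeniUncJ x CC011/UncJ)F1 at 545.5 CPM down to 359.7 CPM in (CC030/GeniUncJ x CC002/UncJ)F1. These 3 orders each had 1 gap between neighboring strains, of 19, that was larger than 2 standard errors, and the lowest strain for Fabp3 stood 0.263 below the next.

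The other 5 members had no gap of that size between neighbors in their order. Cd36 spanned 0.583 ± 0.071, Slc25a20 0.556 ± 0.05, Cpt2 0.376 ± 0.045, Acsl1 0.305 ± 0.063 and Cpt1b 0.283 ± 0.039. The same cross, (CC043/GeniUncJ x CC011/UncJ)F1, was highest for 6 of the 8 members after adjustment, with Slc25a20 at 54.03 CPM, Acsl1 at 316.6 CPM and Cpt1b at 227.6 CPM, and the exceptions were Slc27a1 and Cpt2. Adjusted p-values for strain ran from 4.8e-42 (Slc25a20) to 9.2e-08 (Acsl1) for the members other than Slc27a1.

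Some crosses that share a parent line stood together, which was seen after the values were known and is given as a description. The 3 cases below were picked from all members and all parent lines with at least 3 crosses. Elsewhere ranks were scattered, as for Fabp3 with CC002/UncJ (5, 6, 18, 19 and 20) and Lpl with CC011/UncJ (1, 14 and 19). The 6 crosses with a CC042/GeniUncJ parent held the 6 highest mean levels of Cpt2, 42.51 to 47.34 CPM, while the other 14 lay between 36.88 and 41.8 CPM. These are unadjusted means. After adjustment for sex, diet and identifier range the groups overlapped, since (CC019/TauUncJ x CC075/UncJ)F1, at 5.318 on the log2 scale, lay above 2 of the 6 (5.29 and 5.302). In metformin-treated animals the same 6 crosses lay between 40.94 and 44.24 CPM and the others between 31.46 and 43.91 CPM, so there they overlapped. The 3 crosses with a CC051/TauUncJ parent had Slc25a20 ranks of 15, 18 and 20 of 20, both in untreated animals (36.75 to 42.93 CPM) and in metformin-treated animals (33.53 to 39.99 CPM). For Cd36 the 3 crosses with a CC043/GeniUncJ parent ranked 2, 3 and 4, at 265.3 to 278.9 CPM, and among metformin-treated animals they ranked 1, 4 and 7.

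**Figure D4:**
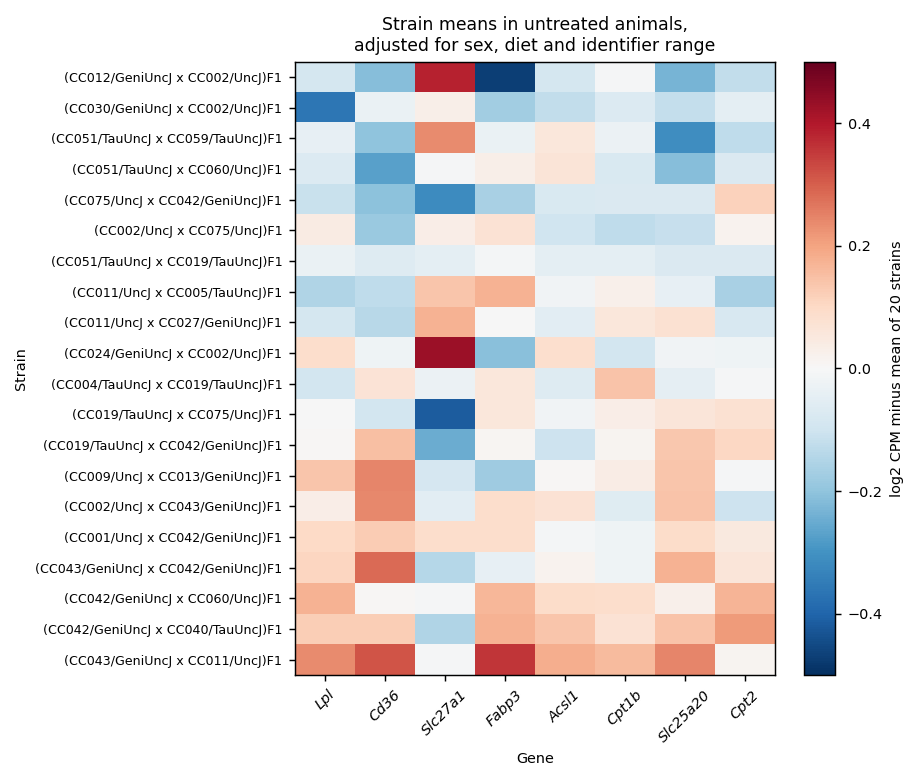
Strain means of the 8 genes (columns) in untreated animals as log2 CPM minus the mean of the 20 strains, adjusted for sex, diet and identifier range, from blue (lower) to red (higher), with the strains (vertical axis) ordered by their mean over the 7 genes other than Slc27a1. The strain (CC043/GeniUncJ x CC011/UncJ)F1 is highest for 6 of the 8 genes, and the Slc27a1 column follows another order than the rest.

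The diet difference had the same direction in nearly every strain. Fabp3, Cd36, Slc25a20, Cpt1b, Cpt2 and Acsl1 were higher on the 44% fat diet in 20 of 20 strains, Slc27a1 in 19 and Lpl in 17. Without the label-mismatched libraries Cpt2 was higher in 19, since its difference in (CC024/GeniUncJ x CC002/UncJ)F1 went from 0.01 to -0.025 ± 0.058, and the counts of the other 7 members were as before. For Fabp3 the difference within a strain exceeded 2 standard errors in 19 of 20 strains, and in 7 strains the lowest animal on the 44% fat diet was above the highest on the 10% fat diet. In metformin-treated animals Fabp3, Slc25a20 and Cpt2 were higher in 20 of 20 strains, Cd36, Slc27a1, Cpt1b and Acsl1 in 19 and Lpl in 15.

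The size of the Fabp3 difference ran from 0.296 to 1.38 on the log2 scale over the strains, with a median of 0.861 and an SD of 0.223. It was largest in (CC043/GeniUncJ x CC042/GeniUncJ)F1, where Fabp3 was 129.3 ± 42.43 CPM (SD, n = 13, 83.07 to 239.7) on the 10% fat diet and 329.7 ± 68.76 CPM (n = 12, 245.2 to 457.3) on the 44% fat diet, without overlap. It was smallest in (CC024/GeniUncJ x CC002/UncJ)F1, where Fabp3 was 163.7 ± 35.81 CPM (n = 12, 99.93 to 202.1) and 206.7 ± 66.5 CPM (n = 12, 100.5 to 315), so that most animals overlapped. The same 2 crosses stood at the ends in metformin-treated animals, at 1.625 and 0.227.

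The cross (CC024/GeniUncJ x CC002/UncJ)F1 had the lowest diet difference, with its sign, of the 20 strains for 7 of the 8 members in untreated animals and for 6 of 8 in metformin-treated animals. In untreated animals its differences were 0.088 for Cd36, -0.058 for Slc27a1, -0.172 for Lpl, 0.01 for Cpt2, 0.123 for Slc25a20 and 0.032 for Acsl1. For Slc27a1 and Lpl the estimates thus lay below 0. Without the label-mismatched libraries they were -0.017 ± 0.071 and -0.145 ± 0.094, each within 2 standard errors of 0. Lpl was then also below 0 in (CC004/TauUncJ x CC019/TauUncJ)F1 (-0.008 ± 0.056) and (CC012/GeniUncJ x CC002/UncJ)F1 (-0.013 ± 0.082). For Cpt1b the lowest, 0.068, was in (CC051/TauUncJ x CC019/TauUncJ)F1. All 36 libraries of (CC024/GeniUncJ x CC002/UncJ)F1 lay in the lower identifier range, and 2 of the 19 libraries that disagreed with their labels belonged to it. The 8 members were measured in the same animals and moved together from animal to animal, so they are not 8 separate observations of that cross.

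Tested over all strains at once, the interaction of diet and strain was not called for any member by edgeR, beside 4.13% of all genes called. Fabp3 came closest (adjusted p = 0.07), and without the label-mismatched libraries it was called (adjusted p = 0.043). That was the only 1 of 6 alternatives, in edgeR or limma, with a call for Fabp3, and its adjusted p reached 0.34 among them. Lpl followed at an adjusted p of 0.18 and Slc25a20 at 0.39. These p-values do not show that the strains responded alike.

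**Figure D5:**
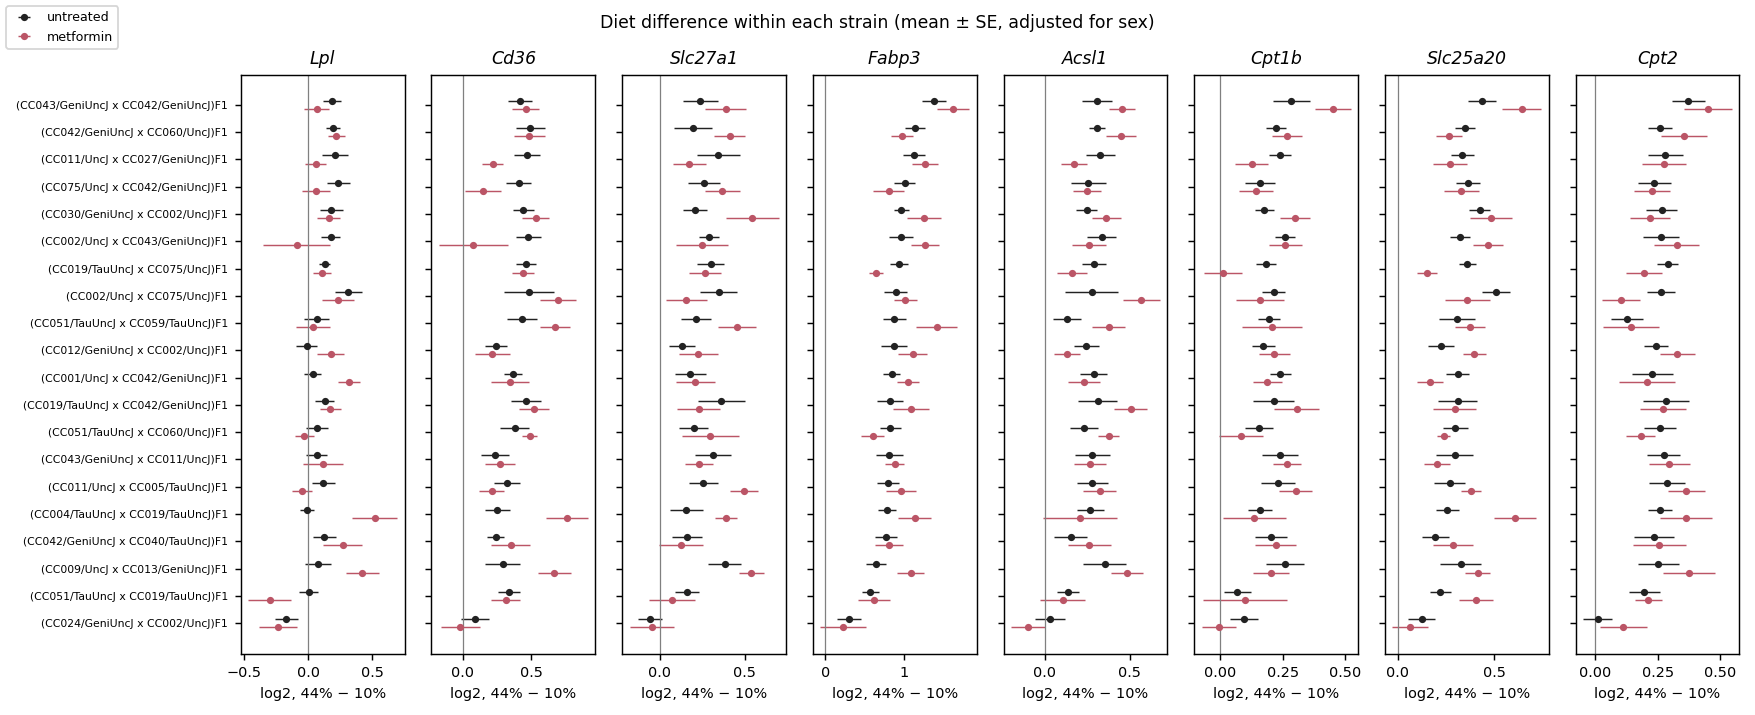
Difference between diets (log2 CPM, 44% minus 10% fat, with standard errors) for each gene in each of the 20 strains, in untreated and metformin-treated animals. Fabp3 ranges from 0.296 to 1.38 in untreated animals and lies above 0 in all strains, and (CC024/GeniUncJ x CC002/UncJ)F1 is at or near the low end of most panels.

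The diet difference differed between the sexes for Slc27a1, which was the only member called (0.568% of all genes were called). Slc27a1 went from 45.98 ± 11.39 CPM to 50.37 ± 9.457 CPM (SD) in the 236 females and from 42.35 ± 10.35 CPM to 52.14 ± 11.44 CPM in the 233 males. The log2 difference was 0.143 ± 0.03 in females and 0.311 ± 0.028 in males, and the interaction was 0.19 ± 0.04 (adjusted p = 0.0067). In metformin-treated animals the corresponding values were 0.208 ± 0.039 and 0.346 ± 0.038. The call held in the lower identifier range alone, and in the upper range the interaction was 0.062 (adjusted p = 1.0). For the other 7 members the interaction lay between 0.0066 (Cpt1b) and 0.0976 (Acsl1), and none passed the test.

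Between the sexes, Cpt1b, Fabp3 and Slc25a20 were higher in males, and Cd36, Acsl1 and Cpt2 were slightly lower in males. Sex was called for 67.1% of all genes in untreated animals (30.1% higher and 37% lower in males), so 6 of 8 members is close to the background. Cpt1b, the entry enzyme of the shuttle, was 191.7 ± 25.84 CPM in females (n = 236) and 213.9 ± 24.95 CPM in males (n = 233), a log2 difference of 0.16 ± 0.01 (adjusted p = 3.4e-32), and males were higher in 20 of 20 strains. Fabp3 was 207.8 ± 81.15 CPM in females and 239.6 ± 96.02 CPM in males (0.18 ± 0.03, adjusted p = 4.7e-08), with males higher in 17 strains. Slc25a20 differed by 0.10 ± 0.02 (adjusted p = 8e-10), with males higher in 18 strains.

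The differences in the other direction were small. Cd36 was lower in males by a log2 difference of -0.06 ± 0.02 (adjusted p = 0.016), Acsl1 by -0.04 ± 0.02 (adjusted p = 0.037) and Cpt2 by -0.03 ± 0.01 (adjusted p = 0.034). Lpl (-0.02 ± 0.02, 95% interval -0.059 to 0.014) and Slc27a1 (-0.04 ± 0.02, interval -0.084 to 0.002) did not pass the test. All 6 adipocyte markers and all 7 slow fiber markers were lower in males, with median log2 differences of -0.753 and -0.659, and with the adipocyte sum as a covariate the differences of Cd36, Acsl1 and Cpt2 became 0.033, 0.013 and 0.0072, none of them called. With the same covariate Lpl was higher in males at 0.066 (adjusted p = 0.002), and with the slow fiber sum at 0.129 (adjusted p = 2.1e-05). Cpt1b, Fabp3 and Slc25a20 were still called higher in males with either covariate. Without the libraries high in liver transcripts the differences of Cd36, Acsl1 and Cpt2 were -0.048, -0.042 and -0.034, close to those with all libraries, but did not pass the test (adjusted p = 0.07, 0.076 and 0.056), which left 3 members called. Of all genes, 10369 of 16345 were called in that fit. Slc27a1 passed in DESeq2 (-0.047, adjusted p = 0.047), in the lower identifier range alone (-0.054, adjusted p = 0.031) and with the table limited to genes averaging at least 5 CPM (-0.066, adjusted p = 0.004), where Lpl passed too (-0.047, adjusted p = 0.02). Cd36 did not pass in the lower range alone (-0.047, adjusted p = 0.067), nor did Acsl1 in limma voom (-0.0405, adjusted p = 0.061). In the upper range alone Cpt2 (-0.026, adjusted p = 0.64) and Acsl1 (-0.04, adjusted p = 0.57) did not pass. Cpt2 was also lost with the slow fiber sum (-0.002, adjusted p = 0.95).

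Metformin-treated animals had lower levels of 6 of the 8 members than untreated animals, with Lpl at the head. Of 17740 genes tested over all libraries 19.4% were called and 11% were called lower. Lpl was 461.5 ± 78.38 CPM in untreated animals (SD, 241.7 to 795.9) and 421.6 ± 88.09 CPM in metformin-treated animals (207.3 to 1104), a log2 difference of -0.13 ± 0.02 (adjusted p = 4e-09), and fitted within each strain on the log2 scale with sex and diet it was lower under metformin in 20 of 20 strains. By mean CPM it was lower in 19, since (CC002/UncJ x CC043/GeniUncJ)F1, the cross of the library with 1104 CPM, had 475.4 CPM untreated and 483.7 CPM with metformin. Slc25a20 fell from 45.36 ± 8.826 to 42.67 ± 8.311 CPM (-0.09 ± 0.01, adjusted p = 1.3e-07), lower in 19 strains by the same fit (17 by mean CPM). Cpt2 (-0.06 ± 0.01, adjusted p = 0.0001) and Slc27a1 (-0.06 ± 0.02, adjusted p = 0.02) were lower in 18 strains each, and Acsl1 (-0.05 ± 0.02, adjusted p = 0.016) and Cpt1b (-0.04 ± 0.01, adjusted p = 0.0048) in 15 each, by that fit. Neither the fits within strains nor the strain means were adjusted for the identifier range. The upper range held 90 metformin-treated and 69 untreated libraries, and the lower range 144 and 400. In crosses with libraries in both ranges, the signs therefore do not separate treatment from range.

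Fabp3 (-0.04 ± 0.03, 95% interval -0.102 to 0.015) and Cd36 (-0.04 ± 0.02, interval -0.075 to 0.004) did not pass the test. The groups overlapped for every member, and the largest difference, that of Lpl, was smaller than 1 SD of either group. All 6 calls were made in the lower identifier range alone, where 3900 of 17892 genes were called and 2202 were called lower. In the upper range alone 0 of 8 members were called, while 1 of 17683 genes was called by edgeR and 1160 had an unadjusted p under 0.05. There Lpl was at -0.069 (adjusted p = 0.63) and Cpt2 and Acsl1 were at 0.012 and 0.018. In metformin-treated animals 1 of 6 adipocyte markers and 3 of 6 endothelial markers were lower, with 1 endothelial marker higher. With the adipocyte sum as a covariate 4 members were called, beside 2367 of 17740 genes, since Slc27a1 (-0.041) and Acsl1 (-0.041) were lost. Without the libraries high in liver transcripts the same 2 did not pass the test (adjusted p = 0.066 and 0.052), at differences of -0.054 and -0.05 that were close to those with all libraries.

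The difference between treated and untreated animals did not differ detectably between the diets or the sexes for any member by edgeR. The interaction with diet was called for 0 of 8 members and 0.0902% of genes, and that with sex for 0 of 8 and 3.12%. Fabp3 had the largest interaction with diet at 0.13 ± 0.06 (unadjusted p = 0.017, adjusted p = 0.43): treated animals were at -0.121 ± 0.043 against untreated ones on the 10% fat diet and at 0.013 ± 0.039 on the 44% fat diet.

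Other genes of lipid uptake, activation and the carnitine system were read from lists of 40 neighbors, of which 37 were tested in untreated animals. Between the diets 13 were higher and 6 lower on the 44% fat diet, with a median log2 difference of 0.025, well below the 0.247 of the 8 members. Of all genes 20.3% were called for diet and 10.1% were called higher. Of 12 genes of the carnitine system and malonyl-CoA 6 were higher and 2 lower. Of 11 other uptake proteins and carriers 3 were higher and 2 lower, of 6 partners of lipoprotein lipase 2 were higher and 1 lower, and of 8 other synthetases and thioesterases 2 were higher and 1 lower.

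The genes that set malonyl-CoA did not all move one way. Mlycd, which degrades malonyl-CoA, rose from 41.83 ± 9.597 CPM to 51.61 ± 10.27 CPM (0.30 ± 0.03, adjusted p = 3.2e-25), and Acaca, an acetyl-CoA carboxylase that makes it, fell from 73.43 ± 57.82 CPM to 42.2 ± 27.37 CPM (-0.72 ± 0.06, adjusted p = 8.6e-27). Acacb, the other acetyl-CoA carboxylase and the more abundant of the pair in this muscle, rose from 336.7 ± 42.99 to 353.5 ± 49.01 CPM (0.07 ± 0.01, adjusted p = 3.7e-05) and is named outside the rule for neighbors, after its values were seen. Angptl4, a secreted inhibitor of lipoprotein lipase, rose from 3.116 ± 2.858 to 5.153 ± 3.684 CPM (0.68 ± 0.09, adjusted p = 2.7e-11), while its relative Angptl8, at 0.2834 and 0.1458 CPM, fell (-0.85 ± 0.12, adjusted p = 1.7e-09). The thioesterases Acot2 (8.612 to 12.6 CPM, 0.56 ± 0.05) and Acot1 (0.8079 to 1.379 CPM, 0.81 ± 0.08) rose, and as near-identical copies they may share reads. Fabp5, a binding protein of fat and skin, fell (-0.24 ± 0.06, adjusted p = 0.00032), as did the synthetase Acsl3 (-0.18 ± 0.04, adjusted p = 4.8e-05). These values join both sexes and all strains. By edgeR the diet difference of Fabp5 was higher in males than in females by 0.52 ± 0.11 (interaction, adjusted p = 0.0024). It also differed between strains (adjusted p = 0.0034), as did that of Acaca (adjusted p = 0.028).

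In metformin-treated animals Acacb was again higher on the 44% fat diet (0.12 ± 0.02, adjusted p = 4.3e-10), and the 8 neighbors that the rule names were called in the same directions, among 10 called higher and 6 lower. Of all genes 12.1% were called there. Acaca was at -0.94 ± 0.07, Angptl8 at -1.84 ± 0.19, Mlycd at 0.35 ± 0.03, Angptl4 at 0.58 ± 0.14 and Acot2 at 0.72 ± 0.06. Acaca, Angptl8 and Fabp5 are expressed by adipocytes too, and the part that the lower adipocyte markers of these animals had in their differences was not tested.

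Between the sexes 29 of 37 neighbors were called, beside 67.1% of all genes. Of these neighbors 15 were higher and 14 lower in males. Acsl3 (15.67 ± 6.896 CPM in females, 29.6 ± 12.68 in males, 0.93 ± 0.04, adjusted p = 1.8e-80), the lipoprotein receptor Vldlr (189.4 ± 43.14 and 279 ± 73.88 CPM, 0.55 ± 0.02, adjusted p = 2.1e-98) and Crot, the peroxisomal carnitine octanoyltransferase (35.21 ± 4.2 and 46.55 ± 9.785 CPM, 0.39 ± 0.02, adjusted p = 1.4e-83), were higher in males by more than any of the 8 members. Acaca (-0.80 ± 0.06), Angptl8 (-0.90 ± 0.13), Bbox1 (-0.43 ± 0.14) and Acot1 (-0.42 ± 0.08) were lower in males, and of these only Acaca had a mean above 2 CPM.

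Under metformin 13 of 38 neighbors were lower and 2 higher, and 7 of the 12 carnitine and malonyl-CoA genes were lower. Of all genes 19.4% were called and 11% were called lower. Gpihbp1, the endothelial protein that anchors lipoprotein lipase in the capillary, fell from 7.612 ± 1.869 to 6.718 ± 1.577 CPM (-0.14 ± 0.03, adjusted p = 2.1e-06), next to the difference in Lpl itself. Slc25a29, a mitochondrial carrier of the same family as Slc25a20, fell from 5.208 ± 1.468 to 4.573 ± 1.516 CPM (-0.15 ± 0.03, adjusted p = 1.4e-06). Slc27a2 (-0.60 ± 0.21) and Lipg (-0.53 ± 0.14) were called lower at medians below 0.1 CPM. Slc27a2 had a mean of 0.59 ± 3.39 CPM (SD) in untreated animals, beside a median of 0.08 CPM. The 6 liver markers had a median log2 difference of -0.503 in this comparison, with 0 called. The part of liver transcripts in the Slc27a2 difference was not tested. Acsl6 (0.07 ± 0.02) and Angptl8 (0.37 ± 0.12) were called higher.

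Within the groups of untreated animals the members moved together: over the 236 females and 233 males, all of the 28 pairwise Pearson correlations of log2 CPM were above 0, from 0.355 to 0.785 (Cd36 with Acsl1), with a median of 0.547. These libraries share the muscle, the normalization and the RNA of the same cells. Over the 20 strain means the picture was looser, from -0.602 (Slc27a1 with Cpt2) to 0.853 (Cd36 with Slc25a20), with a median of 0.359, and all 6 pairs below 0 included Slc27a1. With the summed markers, Cd36 and Lpl correlated with the adipocyte sum at 0.33 and 0.377 and with the endothelial sum at 0.356 and 0.254, and Fabp3 with the adipocyte sum at -0.096 and with the slow fiber sum at 0.287.

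Over the 80 combinations of strain, sex and diet, the genes most like the members were mostly enzymes of mitochondrial fat oxidation. Among 10133 genes, those with the highest correlation with Fabp3 were Acadl (0.908), Acadvl (0.903), both acyl-CoA dehydrogenases, and the lipid droplet protein Plin5 (0.89). For Slc25a20 they were Acadl (0.9), Eci2 (0.885) and Acadvl (0.864), for Cd36 Hadha (0.822), Eci2 (0.813) and Acadl (0.793), and for Cpt1b Eci1 (0.841), Hadhb (0.788) and Acadvl (0.781). For Cpt2 they were Plin5 (0.816), Eci2 (0.812) and Retsat (0.812), and for Acsl1 Slc25a34 (0.869), Plin5 (0.842) and Acadvl (0.8). Acadvl was in the list of 4 members and Acadl, Eci2 and Plin5 in those of 3 each.

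Lpl and Slc27a1 had other partners. The genes most like Lpl were Acaa2 (0.682), Fndc5 (0.682) and Mdh1 (0.643). Those most like Slc27a1 included Kxd1 (0.74) and Use1 (0.715), which lie near it on chromosome 8, at 1041.0 and 199.2 kb. The combinations include the diet, so a gene that differs between diets gains in likeness to another that does.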

How the data were processed

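Poly(A) RNA-seq of 703 gastrocnemius samples was analyzed. The authors sequenced 100 bp paired ends, combined both reads as single-end reads, aligned them to a pooled transcriptome of the 8 founder strains and deposited estimated counts per gene from EMASE within the GBRS software. They also deposited values after the variance-stabilizing transform of DESeq2 (a log2-like unit that is no count), used here as an alternative alone. GRCm38 is named in the submitters' processing notes. Aligner and counting strand are not given in the sources used here.

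Estimated counts were rounded and fitted in edgeR 4.0.16 (R 4.3.3) by the quasi-likelihood F test with TMM scaling and filterByExpr, with strain, sex, diet, treatment and the identifier range as terms as each comparison required. The p-values were adjusted by Benjamini and Hochberg over all genes tested, and genes with an adjusted p under 0.05 were called. Levels are CPM, and log2 CPM has a prior count of 2. The range is that of the sequencing identifier in the labels, and is not stated to be a batch. Alternatives used limma 3.58.1 and DESeq2 1.42.0, other scalings and filters, marker covariates and subsets of libraries. Upper-range fits of the 4 interactions were added after seeing the data. The diet fit in untreated animals alone was tested on simulated counts, in which 100% of 200 changed genes and 13 unchanged genes were called. The simulation had 1 dispersion for all genes and no differences between strains, sexes or identifier ranges. The other fits were not simulated. Animals are the replicates, and counting error is small beside their spread at these depths.

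The members and the lists of neighbors and markers were chosen with earlier results of these data known. Named neighbors are the 4 called genes with the largest change in each direction per comparison, and for likeness the 3 genes with the highest correlation. A few genes that this rule names are not reported here.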

Additional observations from a re-analysis of the deposited data

Results flagged for a closer look

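The difference between the sexes in the diet response of Slc27a1 stood out by its own interaction test, 0.1898 on the log2 scale (adjusted p = 0.0067, edgeR), with males at 0.311 and females at 0.143.

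In the 39 groups of 4 to 10 metformin-treated animals of 1 strain and diet, 21 of 312 group values (6.73%) had a library far from the others by Dixon's test, and chance gives about 1 in 20. In the 2 groups of untreated animals of that size 0 of 16 did. For Cd36 the highest library was 532.7 CPM in (CC002/UncJ x CC043/GeniUncJ)F1, 305.8 CPM in (CC024/GeniUncJ x CC002/UncJ)F1 and 186.5 CPM in (CC051/TauUncJ x CC060/UncJ)F1, all on the 10% fat diet, and 318.2 CPM in (CC051/TauUncJ x CC059/TauUncJ)F1 on the 44% fat diet. The lowest Cd36 library was 197.9 CPM in (CC051/TauUncJ x CC060/UncJ)F1 on the 44% fat diet.

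For Lpl the highest library was 1104 CPM in (CC002/UncJ x CC043/GeniUncJ)F1 and 675.6 CPM in (CC043/GeniUncJ x CC011/UncJ)F1 on the 10% fat diet, and 653.6 CPM in (CC001/UncJ x CC042/GeniUncJ)F1 on the 44% fat diet. The lowest was 207.3 CPM in (CC051/TauUncJ x CC019/TauUncJ)F1 and 314.3 CPM in (CC051/TauUncJ x CC060/UncJ)F1, both on the 44% fat diet. The library with 1104 CPM of Lpl is also the one with 532.7 CPM of Cd36, and its adipocyte marker sum of 781.6 CPM was the highest of all libraries, beside a median of 52.81 CPM in its group, while its Fabp3 was 89.57 CPM.

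Fabp3 stood apart at 145.4 CPM in (CC002/UncJ x CC043/GeniUncJ)F1 on the 10% fat diet, and on the 44% fat diet at 458.8 CPM in (CC011/UncJ x CC027/GeniUncJ)F1 and at 202.8 CPM, the lowest, in (CC043/GeniUncJ x CC042/GeniUncJ)F1. Acsl1 reached 383.7 CPM in (CC043/GeniUncJ x CC042/GeniUncJ)F1 on the 44% fat diet. Cpt1b was lowest at 131.7 CPM in (CC002/UncJ x CC075/UncJ)F1 on the 10% fat diet and at 131.5 CPM in (CC051/TauUncJ x CC059/TauUncJ)F1 on the 44% fat diet, and highest at 206.4 CPM in (CC011/UncJ x CC005/TauUncJ)F1 on the 10% fat diet. Cpt2 was highest on the 44% fat diet at 46.44 CPM in (CC024/GeniUncJ x CC002/UncJ)F1 and at 53.44 CPM in (CC030/GeniUncJ x CC002/UncJ)F1. Slc25a20 was highest at 46.67 CPM in (CC024/GeniUncJ x CC002/UncJ)F1 on the 10% fat diet and lowest at 34.14 CPM in (CC012/GeniUncJ x CC002/UncJ)F1 on the 44% fat diet.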

How the results depend on the processing

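No paired analysis was made because the labels match no animal to another. Over 14 alternatives for each of diet, sex and metformin, the diet results changed least: no direction turned, and 1 call was lost in untreated and 3 in metformin-treated animals, all of Lpl. The strain calls of all 8 members held in each of the 13 alternatives tried for them. The count of members called for sex was 3 without the libraries high in liver transcripts, with differences close to those in all libraries. The count for metformin was 0 in the upper identifier range alone, where Cpt2 (0.0122) and Acsl1 (0.0178) also turned direction, and that for diet by sex was 0 there, while without the label-mismatched libraries 1 member, Fabp3, was called for diet by strain. The cause was not tested. For sex, the adipocyte covariate turned Cd36 (0.0328), Slc27a1 (0.03), Lpl (0.066), Cpt2 (0.0072) and Acsl1 (0.0126), and the slow fiber covariate turned Cd36 (0.0128), Slc27a1 (0.0119), Lpl (0.129) and Acsl1 (0.019). Interactions that were not called turned direction in the ranges: for diet by sex in the upper range, Fabp3 (-0.1926), Cpt1b (-0.0632), Slc25a20 (-0.1073) and Acsl1 (-0.0197); for metformin by diet Cd36 (-0.0605), Cpt1b (-0.0043) and Cpt2 (-0.0076) in the lower range and Lpl (0.0478), Cpt1b (-0.0084) and Slc25a20 (-0.0045) in the upper. For metformin by sex they did so for Slc25a20 with the other size factors (0.0004), for Fabp3 in limma voom (-0.0004) and without mismatched libraries (-0.0022), for Cd36 with lower-range libraries (0.0142) and with upper-range libraries for Fabp3 (-0.0884), Slc27a1 (-0.0605), Cpt2 (0.0186) and Acsl1 (-0.0413). The upper range had 159 libraries, of which 69 were untreated, and the diet by strain fit there could estimate 5 of 19 terms.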

Other observations

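The lowest level of Cd36 in any library, 72.71 CPM, and the lowest of Acsl1 came from the same animal, a male on the 44% fat diet without drug labeled (CC002/UncJ x CC075/UncJ)F1. Its adipocyte marker sum was 7.572 CPM, it was 1 of the 4 libraries closest to another strain, and the other 5 animals of its combination had Acsl1 between 259.4 and 368.6 CPM.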
